A study of Homo sapiens with 30 samples.

Results

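Heat shock proteins and cytosolic chaperones were followed across 30 microarrays of the human monocytic leukaemia line THP-1 exposed to engineered nanomaterials. The materials were multi-walled carbon nanotubes, written MWCNT, and ribbons of titanium dioxide, written TiO2-NB for nanobelts. The set was a fixed list of 36 gene symbols, and a member was measured where the platform annotation assigns at least 1 probe set (the oligonucleotides that read 1 transcript region) to that symbol alone. That rule gave 31 measured members of 10050 genes tested, each read by its probe set of highest mean. HSPA1A, HSPA8 and TCP1 were read only by probe sets shared with other genes and are described separately, and HSF2 and AHSA1 were not analysed here. THP-1 is an established line that grows in suspension. In this experiment it was turned into adherent, macrophage-like cells with the phorbol ester PMA at 82 nM for 24 h, and the cells were scraped off and replated before particles were added. All 10 groups shared that treatment: control cultures without particles, MWCNT at 10 or 100 µg/ml, and TiO2-NB at 10 or 100 µg/ml, each cultured for 1 or 24 h, with 3 biological replicates per group. Adherent cells were washed and lysed, and total RNA was labelled from an oligo-dT primer, so that the signal comes mainly from the 3′ end of polyadenylated transcripts. The question the design poses is how each material, dose and time changed the mRNA of these genes.

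Chaperones bind unfolded or partly folded proteins and keep them from aggregating, and many are induced when misfolded protein accumulates. In resting cells HSF1 is held inactive by chaperones; when these are occupied, HSF1 forms trimers, binds heat shock elements built of repeated inverted GAA units, and raises transcription of HSPA1A, HSPA6, HSPH1, DNAJB1, HSPB1 and BAG3 among others. J-domain proteins pass clients to HSP70, nucleotide exchange factors such as BAG and HSP110 proteins release them, HSP90 finishes many kinases and receptors, and the ring complexes TRiC (in the cytosol) and HSPD1 with HSPE1 (in mitochondria) fold proteins inside a chamber.

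Because several of these genes share heat shock elements, the start-proximal sequence of the members on which the results below turn is shown first. HSPA6, CHORDC1, DNAJB6 and BAG3 rose with TiO2-NB, CCT3 rose with MWCNT, and SERPINH1 and DNAJB1 rose with time in culture. Sequences are the 250 bases before the annotated start in RefSeq (build GRCh38.p14), 5′ to 3′ on the gene's strand, and capitals mark every match to GAANNTTC or TTCNNGAA, 2 adjoining inverted units. Positions below count the last base before the start as -1. SERPINH1 has 1 and DNAJB1 has 2 further annotated starts without a match, which are not shown.
HSPA6: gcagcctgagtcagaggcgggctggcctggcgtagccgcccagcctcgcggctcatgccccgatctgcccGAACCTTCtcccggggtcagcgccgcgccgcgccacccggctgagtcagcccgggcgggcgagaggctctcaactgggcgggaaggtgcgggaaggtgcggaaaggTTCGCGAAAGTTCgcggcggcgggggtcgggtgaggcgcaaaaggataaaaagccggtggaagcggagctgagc
CHORDC1: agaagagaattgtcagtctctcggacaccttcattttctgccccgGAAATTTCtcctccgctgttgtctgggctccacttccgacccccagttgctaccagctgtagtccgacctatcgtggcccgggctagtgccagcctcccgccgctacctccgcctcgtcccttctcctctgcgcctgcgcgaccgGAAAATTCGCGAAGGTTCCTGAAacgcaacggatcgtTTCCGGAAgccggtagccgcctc
DNAJB6: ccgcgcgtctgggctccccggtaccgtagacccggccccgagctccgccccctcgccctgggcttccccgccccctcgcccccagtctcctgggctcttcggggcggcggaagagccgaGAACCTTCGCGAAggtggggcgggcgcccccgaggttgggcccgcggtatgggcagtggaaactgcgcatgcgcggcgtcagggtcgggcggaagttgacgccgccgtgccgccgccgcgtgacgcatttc
BAG3: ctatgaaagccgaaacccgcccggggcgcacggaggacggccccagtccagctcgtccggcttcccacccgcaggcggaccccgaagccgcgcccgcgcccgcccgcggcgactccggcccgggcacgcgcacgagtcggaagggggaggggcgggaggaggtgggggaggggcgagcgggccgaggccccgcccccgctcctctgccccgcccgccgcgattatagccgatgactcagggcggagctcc
CCT3: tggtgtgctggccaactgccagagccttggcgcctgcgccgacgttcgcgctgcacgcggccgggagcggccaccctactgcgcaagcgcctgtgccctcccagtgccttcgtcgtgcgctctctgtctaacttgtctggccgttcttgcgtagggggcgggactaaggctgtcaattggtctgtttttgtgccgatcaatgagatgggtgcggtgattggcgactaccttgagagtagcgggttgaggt
SERPINH1: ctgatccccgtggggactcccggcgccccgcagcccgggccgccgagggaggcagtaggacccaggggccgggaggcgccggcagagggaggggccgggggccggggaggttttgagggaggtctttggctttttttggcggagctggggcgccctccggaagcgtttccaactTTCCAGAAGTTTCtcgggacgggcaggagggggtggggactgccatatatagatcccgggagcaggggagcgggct
DNAJB1: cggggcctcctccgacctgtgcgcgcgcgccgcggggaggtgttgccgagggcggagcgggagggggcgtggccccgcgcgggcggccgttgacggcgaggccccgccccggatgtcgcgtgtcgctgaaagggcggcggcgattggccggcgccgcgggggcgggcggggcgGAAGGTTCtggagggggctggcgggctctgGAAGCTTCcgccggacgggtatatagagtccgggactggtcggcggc
The windows lie at chr1:161524290-161524539 (plus strand) for HSPA6, chr11:90223050-90223299 (minus) for CHORDC1, chr7:157336754-157337003 (plus) for DNAJB6 and chr10:119651130-119651379 (plus) for BAG3. Those of CCT3, SERPINH1 and DNAJB1 lie at chr1:156338293-156338542 (minus), chr11:75562003-75562252 (plus) and chr19:14518398-14518647 (minus). All are upstream flanking sequence of these annotated starts.

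In HSPA6 a match begins at -180 and an overlapping pair begins at -74 and -69, the pair forming 3 units in a row. In CHORDC1 an unbroken run of matches begins at -60, -55, -50 and -45, with single matches at -205 and -23. DNAJB6 holds 3 units from -131 and SERPINH1 3 units from -76, whereas DNAJB1 holds separate 2-unit matches at -77 and -47. The windows of BAG3 and CCT3 hold none of these letters. A 3-unit match means GAA, TTC and GAA, or TTC, GAA and TTC, each parted by NN, so that GAANNTTC and TTCNNGAA overlap. These 3-unit forms are each other's reverse complement and each 2-unit form is its own, so both strands were covered. Of the 36 listed symbols, 33 had a window, all but HSF1, CRYAB and FKBP4. A 3-unit match was present for 8 of these 33 (24.2%) against 152 of all 27305 genes (0.557%), and a 2-unit match for 17 (51.5%) against 3813 (14.0%). The 8 were HSPA6, HSPA8, HSPD1, HSP90AA1, HSP90AB1, DNAJB6, SERPINH1 and CHORDC1. Among measured members with a window, a 3-unit match was present for 7 of 28 (25.0%), for 3 of the 10 that rose with 100 µg/ml TiO2-NB at 24 h and for 1 of the 9 that rose with MWCNT, which is HSPD1. The windows shown thus do not stand for these groups. A match describes letters in this window only.

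The arrays were comparable in overall level, with medians between 6.35 and 6.46 on the deposited log2 scale. All 10 measured markers of macrophages and monocytes (of 12 listed) lay above the array's 25th percentile on every array. Their summed level was 15.02 to 15.06 on the 24 h control arrays, 14.88 to 14.95 with 100 µg/ml MWCNT and 14.81 to 14.85 with 100 µg/ml TiO2-NB. A summed level here is the log2 of levels added on the linear scale, in which the most abundant markers weigh most. The summed level of 4 measured fibroblast markers (of 6) was 9.03 to 9.08 in the 24 h controls and 9.25 to 9.64 with 100 µg/ml MWCNT, and over all arrays that of 4 lymphocyte markers (of 6) was 7.18 to 7.58 and that of 2 epithelial markers (of 6) 6.84 to 7.44. The part of these shifts in the chaperone results was not tested. All cultures were of the THP-1 line, so the fibroblast, lymphocyte and epithelial markers are given as RNA levels and not as shares of such cells. In RNA from a whole culture, a change in every cell and a change in some of the cells cannot be told apart. Of the 31 members, 29 lay above the array's 25th percentile on all 30 arrays. HSPA2 did so on 21 arrays and CRYAB on 3, so their differences rest on signal near the bottom of the scale. HSPA6 was among the 29, but its group means, from 5.62 to 6.46, lay near or below the array medians.

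Replicates varied in a shared way at 1 h. In 13 of 31 members the 1 h signal was highest on replicate 2 in 4 of the 5 groups, the exception being 10 µg/ml TiO2-NB (11.6% of all genes did the same). In 12 of those 13 it was highest on replicate 1 in that exception (8.68% of all genes), and no member was highest on replicate 2 in all 5 groups (1.42% of all genes). At 24 h, 12 members were lowest on replicate 3 in the control and both 10 µg/ml groups (17.3% of all genes), among them HSPH1, DNAJB1, HSPA13, BAG3 and CHORDC1. Deviations from the group mean in 10 µg/ml TiO2-NB and in the control at 1 h correlated across genes at -0.36 for both replicate 1 and replicate 2 and at 0.45 for replicate 3. The replicate numbers of that TiO2-NB group are therefore in doubt. At 24 h the same correlations with the control were -0.47, 0.06 and -0.51 for 100 µg/ml MWCNT. For 100 µg/ml TiO2-NB they were -0.48, -0.06 and -0.42, so the numbers do not pair these 24 h groups with the control either. The labels were kept, and whether numbers were exchanged was not tested. Fits with a replicate block that hold any of these groups rest on the labels.

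After 1 h no member was called in any of the 4 exposures. Called here means an adjusted p under 0.05 in limma, a linear model with moderated variances, with Benjamini-Hochberg adjustment over all 10050 genes. The share of all genes called was 0% for MWCNT at 10 and at 100 µg/ml, 0% for TiO2-NB at 10 µg/ml and 1.15% for TiO2-NB at 100 µg/ml, so the members' count of 0 lay near the background in each. Differences from the 1 h control spanned log2 -0.17 to 0.22 and -0.09 to 0.26 over the members with the lower and higher MWCNT dose, and -0.12 to 0.16 and -0.32 to 0.29 with TiO2-NB. HSPA6, the strictly inducible HSP70, was at 5.40, 6.15 and 5.68 on the 1 h control arrays and at 5.56, 6.11 and 5.70 with 100 µg/ml TiO2-NB. Those values interleave. In the paired fit, which takes the replicate number as a block, HSPA2 was called with 100 µg/ml TiO2-NB at 1 h (log2 0.29, SE 0.05, limma adjusted p = 0.0439, against 0.372 without the block, and 0.0439 to 0.806 over 14 alternatives). That fit called 6.82% of all genes, so 1 member of 31 lay below the background.

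At 10 µg/ml no member was called after 24 h either. All genes were called at 0% for MWCNT and 0.0199% for TiO2-NB, and the members' differences from the 24 h control spanned -0.32 to 0.17 and -0.20 to 0.23. HSF1, the factor itself, kept group means between 8.04 and 8.15 over all 10 groups and was called in none of the exposures. In the fit without the block, calls against control thus occurred for the members at 100 µg/ml and 24 h only, of the 8 exposures.

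**Figure D1:**
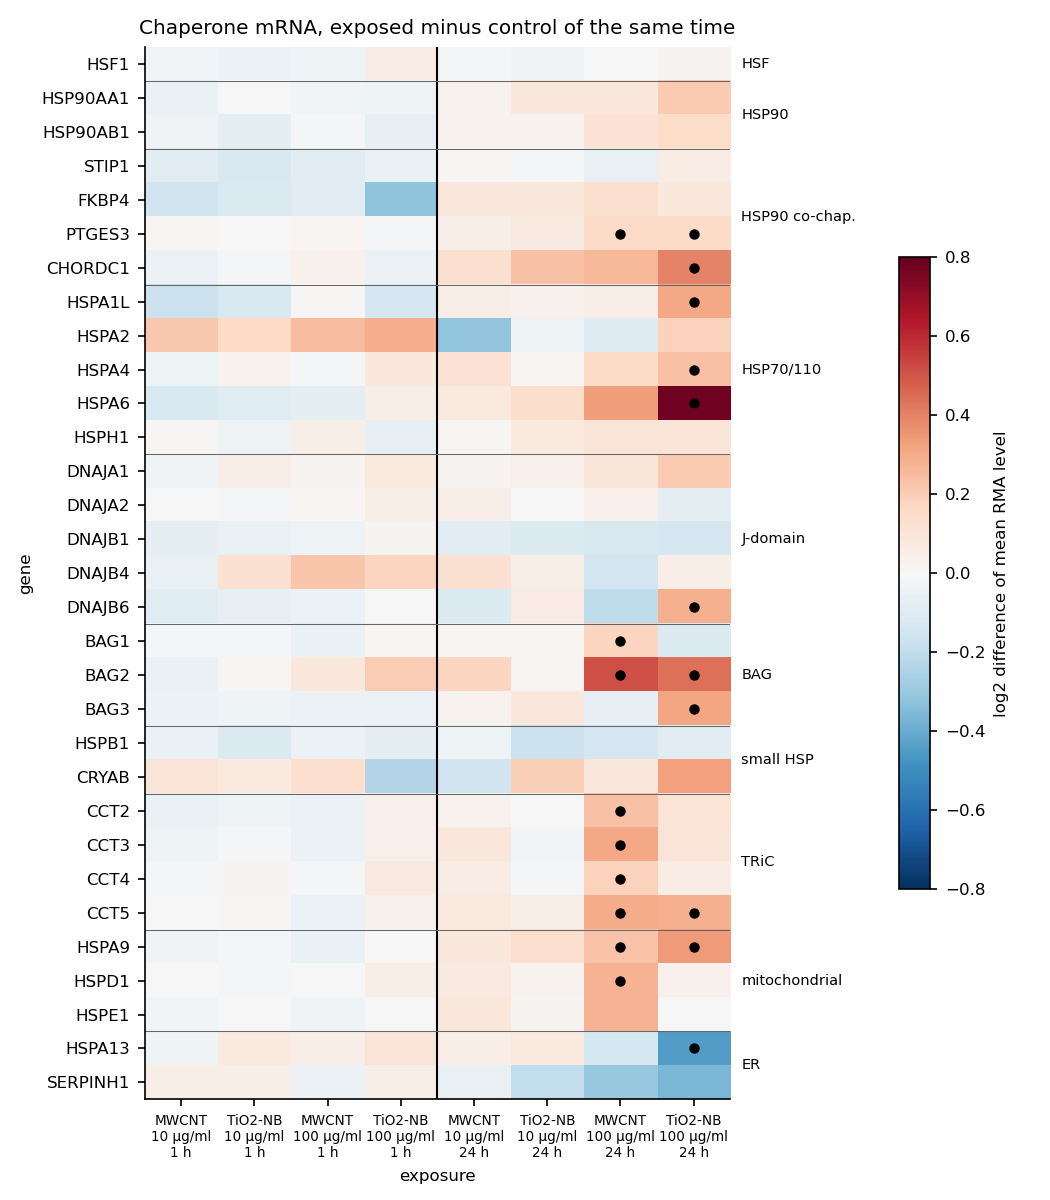
Heat map of the log2 difference of each of the 31 measured members from the control of the same time, in the 8 exposures, grouped by chaperone family. Dots mark an adjusted p under 0.05, which occur only in the columns of 100 µg/ml at 24 h, 9 for MWCNT and 11 for TiO2-NB.

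With 100 µg/ml MWCNT for 24 h, 9 of 31 members rose and 0 fell. Subunits of TRiC gave 4 of the 9 and mitochondrial chaperones 2. Of all genes tested 13% were called, 8.99% higher and 4.04% lower. The 3 control and 3 exposed arrays were apart with the exposed higher in 15 members and lower in 2, against 17.1% and 12.9% of all genes. The median member difference was log2 0.10, against -0.01 over all genes.

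TRiC, the ring that folds actin and tubulin, is represented by 4 measured members, which all rose, with a median of 0.26. Of its subunits outside the 31 that have probe sets of their own, CCT6A (0.27, SE 0.06) and CCT7 (0.20, SE 0.06) rose. CCT8 (0.04, SE 0.05, limma adjusted p = 0.705) and CCT6B, a paralogue of CCT6A (0.16, SE 0.13, limma adjusted p = 0.504), did not pass. CCT3 was at 11.52, 11.58 and 11.64 on the control arrays and at 11.86, 11.89 and 11.92 with MWCNT, a difference of 0.31 (SE 0.07, limma adjusted p = 0.00534). All exposed arrays were above all control arrays. CCT5 was at 11.44, 11.42 and 11.47 in controls and at 11.74, 11.76 and 11.72 with MWCNT (0.29, SE 0.05, limma adjusted p = 0.000276). CCT2 was at 11.89, 11.86 and 11.96 in controls and at 12.11, 12.15 and 12.15 with MWCNT (0.23, SE 0.06, limma adjusted p = 0.00768). The groups did not overlap for either gene. CCT4 rose by 0.18 (SE 0.06, limma adjusted p = 0.0398) and missed the threshold whenever any of the 6 arrays was left out.

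The mitochondrial chaperones gave 2 called members of 3. HSPD1, the chamber of the mitochondrial folding machine, was at 12.30, 12.35 and 12.37 in controls and at 12.61, 12.63 and 12.61 with MWCNT (0.28, SE 0.09, limma adjusted p = 0.0323). HSPA9, the mitochondrial HSP70 that pulls in imported proteins, was at 11.02, 11.06 and 11.02 in controls and at 11.34, 11.16 and 11.28 with MWCNT (0.23, SE 0.06, limma adjusted p = 0.00755). Exposed arrays were above control arrays for both. The further HSPD1 probe set was called too, whereas those of HSPA9 were higher but not all called. HSPE1, the lid of the HSPD1 chamber, was at 10.72, 10.76 and 10.70 in controls and at 10.89, 11.05 and 11.07 with MWCNT, also without overlap, but did not pass the test (0.28, SE 0.12, limma adjusted p = 0.12). HSPD1 and HSPE1 are transcribed in opposite directions in RefSeq. HSPD1 has 2 annotated starts, 105 and 539 bases from that of HSPE1, and its 3-unit matches lie before the farther one.

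Of the BAG proteins, which release clients from HSP70, BAG2 had the largest member difference. It was at 7.41, 7.46 and 7.64 in controls and at 8.28, 7.87 and 7.91 with MWCNT (0.51, SE 0.15, a fold of 1.43, limma adjusted p = 0.0268). Replicate 1 of the exposed group stood highest, and the groups did not overlap. BAG1 rose by 0.17 (SE 0.06, limma adjusted p = 0.0408), and PTGES3, the p23 co-chaperone that stabilises HSP90 on its clients, by 0.15 (SE 0.05, limma adjusted p = 0.0334). The further BAG1 probe set was higher too but was not called.

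None of the 6 measured members of the stress-inducible core (HSPA6, HSPH1, DNAJB1, HSPB1, BAG3 and HSP90AA1) passed the test with MWCNT. HSPA6 was at 5.71, 5.56 and 5.79 in controls and at 6.14, 6.12 and 5.79 with MWCNT (0.33, SE 0.17, limma adjusted p = 0.216). HSPH1, an HSP110 exchange factor, differed by 0.10 (SE 0.18), DNAJB1, the main stress-induced J-domain partner of HSP70, by -0.13 (SE 0.12), and HSPB1, a small heat shock protein that holds unfolded clients, by -0.14 (SE 0.13). BAG3, which sends damaged clients to autophagy, differed by -0.07 (SE 0.09), and HSP90AA1, the inducible cytosolic HSP90, by 0.09 (SE 0.08).

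CCT2, CCT3 and CCT5 passed in every fit that left out 1 of the 6 arrays. The count of 9 fell to 4 without replicate 1 or 2 of the 24 h control, to 3 without replicate 1 of the MWCNT group and to 5 without its replicate 2 or 3. HSPD1, BAG1 and PTGES3 were lost without control replicate 1 or 2 or any MWCNT array, BAG2 without control replicate 1 or 2 or MWCNT replicate 1, and HSPA9 without MWCNT replicate 1.

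**Figure D2:**
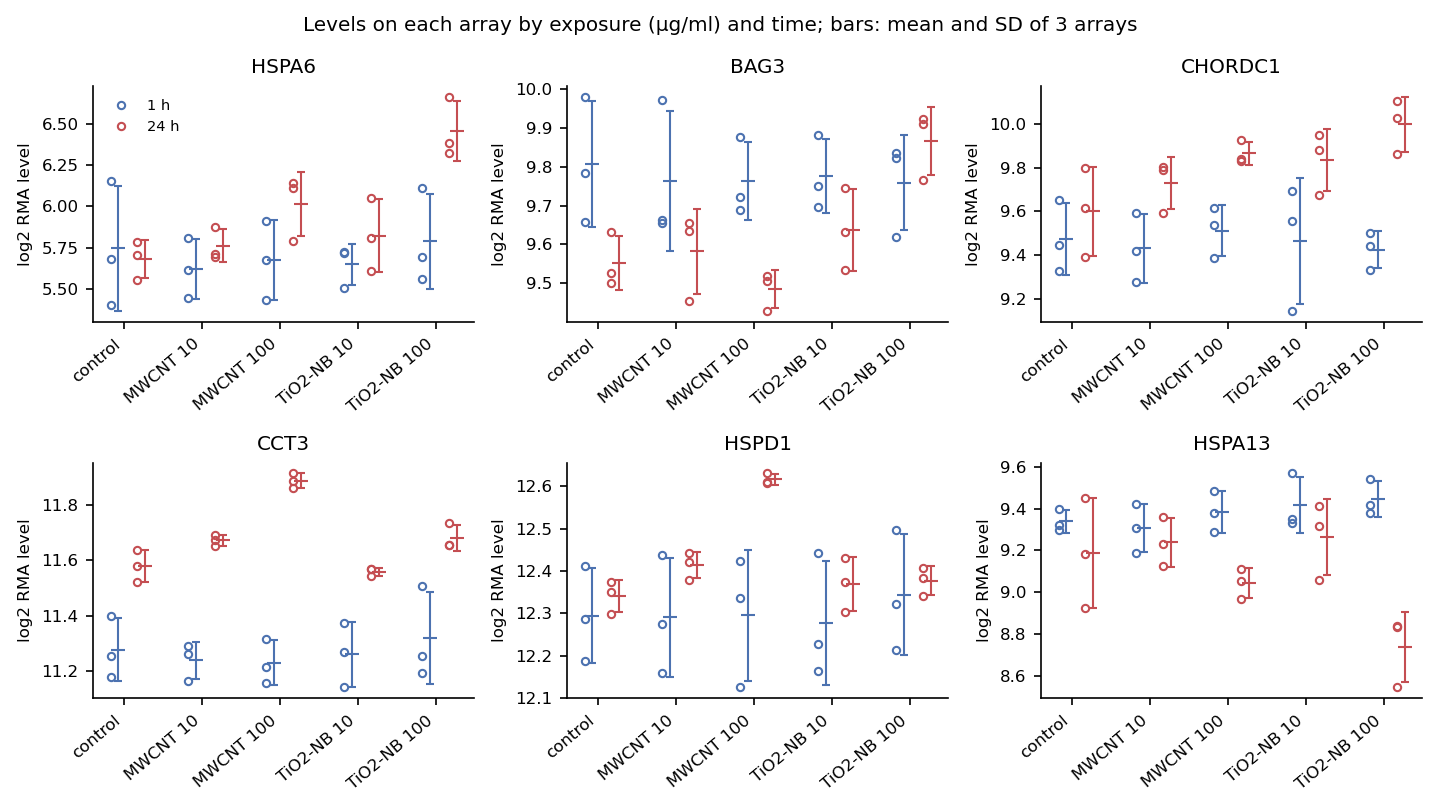
Log2 levels of HSPA6, BAG3, CHORDC1, CCT3, HSPD1 and HSPA13 on each array in the 10 groups; open points are arrays, and bars the mean and SD of 3 arrays. HSPA6 reaches 6.32 to 6.67 with 100 µg/ml TiO2-NB at 24 h, and CCT3 reaches 11.86 to 11.92 with 100 µg/ml MWCNT at 24 h, each above the arrays of the 24 h control.

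With 100 µg/ml TiO2-NB for 24 h, 10 of 31 members rose and 1 fell. The share of all genes called was 22.1%, 10.9% higher and 11.1% lower. Arrays were apart with the exposed higher in 15 members and lower in 3, against 16.6% and 16.7% of all genes, and the median member difference was 0.11 against 0.01 over all genes.

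HSPA6 had the largest member difference of this exposure. It was at 5.71, 5.56 and 5.79 in controls and at 6.67, 6.38 and 6.32 with TiO2-NB (0.78, SE 0.17, a fold of 1.71, limma adjusted p = 0.00146). All exposed arrays were above all control arrays, and the arrays of 10 µg/ml TiO2-NB, at 5.61, 5.81 and 6.05, overlapped the controls and lay below every array of the higher dose. The further HSPA6 probe set also rose (0.31, SE 0.09, limma adjusted p = 0.0177). HSPA7 is a near-identical copy of HSPA6, and these probe sets may not separate them.

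Other HSP70 and HSP110 proteins with a called rise were HSPA1L, a testis-enriched HSP70 relative, and HSPA4, an exchange factor. HSPA1L was at 6.37, 6.39 and 6.19 in controls and at 6.57, 6.70 and 6.62 with TiO2-NB (0.31, SE 0.10, limma adjusted p = 0.0218). HSPA4 rose by 0.24 (SE 0.07, limma adjusted p = 0.0139), but its probe sets disagreed: one further set rose by 0.29 while others lay at -0.42 (limma adjusted p = 0.0511) and -0.29 (limma adjusted p = 0.106). HSPA13, a HSP70-related ATPase of microsomes, was the member that fell, from 9.18, 9.45 and 8.92 in controls to 8.83, 8.54 and 8.84 (-0.45, SE 0.11, limma adjusted p = 0.0049). Its groups did not overlap, although the control arrays were spread. The further HSPA13 probe set went the same way but was not called. It was also not called in the later comparisons of materials, of TiO2-NB doses and of responses at 24 h and 1 h.

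Among co-chaperones, BAG3 was at 9.53, 9.63 and 9.50 in controls and at 9.77, 9.92 and 9.91 with TiO2-NB (0.31, SE 0.09, limma adjusted p = 0.0169). BAG2 was at 7.41, 7.46 and 7.64 in controls and at 8.34, 7.79 and 7.70 with TiO2-NB (0.44, SE 0.15, limma adjusted p = 0.0436). The groups were apart for both, with BAG2 again highest on replicate 1. CHORDC1, an HSP90-binding co-chaperone, was at 9.62, 9.80 and 9.39 in controls and at 10.11, 9.86 and 10.03 (0.40, SE 0.12, limma adjusted p = 0.0219), also without overlap. DNAJB6, a J-domain protein that suppresses aggregation of polyglutamine proteins, rose by 0.28 (SE 0.08, limma adjusted p = 0.0105), and PTGES3 by 0.15 (SE 0.05, limma adjusted p = 0.023).

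In mitochondria and in TRiC, TiO2-NB raised 1 measured member of each. HSPA9 was at 11.02, 11.06 and 11.02 in controls and at 11.49, 11.33 and 11.30 with TiO2-NB (0.34, SE 0.06, limma adjusted p = 8.65e-05), and its further probe sets rose by 0.28 each. CCT5 was at 11.44, 11.42 and 11.47 in controls and at 11.75, 11.75 and 11.69 (0.29, SE 0.05, limma adjusted p = 0.000184). Neither gene's groups overlapped. CCT2, CCT3 and CCT4 differed by 0.11, 0.10 and 0.06 and HSPD1 and HSPE1 by 0.04 and 0.00, none of them called.

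Several classical heat shock genes did not pass the test in the same arrays. HSPH1 was at 11.13, 11.21 and 10.71 in controls and at 10.96, 11.10 and 11.29 with TiO2-NB (0.10, SE 0.18, limma adjusted p = 0.747). DNAJB1 was at 8.75, 8.77 and 8.47 in controls and at 8.39, 8.53 and 8.67 (-0.14, SE 0.12, limma adjusted p = 0.448). HSPB1 was at 10.75, 10.59 and 10.97 in controls and at 10.69, 10.68 and 10.71 (-0.08, SE 0.13, limma adjusted p = 0.7). For each of these 3 the exposed arrays lay among the control arrays or overlapped them.

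HSP90AA1 was at 12.92, 12.94 and 12.86 in controls and at 13.17, 13.02 and 13.16 with TiO2-NB, without overlap (0.21, SE 0.08, limma adjusted p = 0.0521). A further HSP90AA1 probe set went the other way, and it was chosen for mention after its values were seen: 12.13, 12.02 and 11.98 in controls against 11.52, 10.79 and 10.00 (-1.27, SE 0.26, limma adjusted p = 0.000864 over 16167 probe sets). The HSP90AA1 sets thus gave no single direction. CRYAB, a small heat shock protein, differed by 0.33 (SE 0.12, limma adjusted p = 0.0521).

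HSPA6, HSPA9 and CCT5 passed in every fit that left out 1 of the 6 TiO2-NB and control arrays. The count of 11 fell to 7 without replicate 1 or 3 of the 24 h control. BAG3 was lost without control replicate 1 or 3 or TiO2-NB replicate 2 or 3, CHORDC1 without control replicate 3 or TiO2-NB replicate 1 or 3, and BAG2 without control replicate 1 or 2 or TiO2-NB replicate 1. HSPA1L was lost without control replicate 3 or TiO2-NB replicate 2, PTGES3 without control replicate 1 or TiO2-NB replicate 1, and HSPA4, HSPA13 and DNAJB6 without control replicate 1, 2 and 3 in that order.

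HSPA1A, HSPA8 and TCP1 were read only by shared probe sets, so their values belong to more than 1 gene. They were read in a limma fit over 16167 probe sets, which called 10.8% of all sets with 100 µg/ml MWCNT, 22.1% with 100 µg/ml TiO2-NB and 35% between the controls. A set shared by HSPA1A and HSPA1B, the main inducible HSP70 genes, was at 8.61, 8.77 and 8.80 in the 24 h controls and at 10.18, 9.32 and 9.37 with 100 µg/ml TiO2-NB. Exposed arrays were above controls with replicate 1 far highest, and the difference missed the threshold (0.89, SE 0.37, limma adjusted p = 0.0879). With MWCNT that set was at 9.46, 8.74 and 8.77 (0.26, SE 0.37, limma adjusted p = 0.728). At 1 h the same set was at 8.83, 9.87 and 8.65 in controls and at 9.84, 8.88 and 8.68 with 10 µg/ml TiO2-NB. In every 1 h group a single array lay within the range of the 24 h TiO2-NB arrays and the others lay below it. The set that also reads HSPA1L differed by 0.31 with TiO2-NB (SE 0.24, limma adjusted p = 0.404), and the remaining HSPA1A set by -0.21 (SE 0.21, limma adjusted p = 0.535).

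For HSPA8, the constitutive HSP70, the 3 shared sets differed from control by -0.01, -0.03 and -0.02 with MWCNT and by -0.06, -0.10 and 0.00 with TiO2-NB at 100 µg/ml and 24 h, none called. A set of TCP1, the first TRiC subunit, shared with a small nucleolar RNA gene, rose with both: 11.70, 11.63 and 11.61 in controls, 11.85, 11.81 and 11.89 with MWCNT (0.21, SE 0.06, limma adjusted p = 0.0281) and 11.83, 11.81 and 11.81 with TiO2-NB (0.17, SE 0.06, limma adjusted p = 0.0443). Exposed arrays were above controls in both. The other TCP1 sets, at 0.22 and 0.10 with MWCNT and at 0.03 and -0.02 with TiO2-NB, were not called.

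The materials were then compared with each other at equal mass dose and time, as MWCNT minus TiO2-NB. Members called at 10 µg/ml were 0 at 1 h and 0 at 24 h (0% and 0.00995% of all genes), and at 100 µg/ml and 1 h the count was 0 (1.42% of all genes). At 100 µg/ml and 24 h, 6 of 31 members differed. MWCNT gave the higher level in 4 of them and TiO2-NB in 2, against 24.9% of all genes, 14% and 10.9% in these directions. The 6 of 31 thus lay below the share of all genes. The split depended on scaling, being 1 and 4 with each array centred on its median and 1 and 2 with cyclic loess.

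DNAJB6 had the largest such difference, and on its own probe set the groups lay on opposite sides of control. It was at 9.37, 9.44 and 9.29 in controls, at 9.21, 9.11 and 9.17 with MWCNT and at 9.71, 9.63 and 9.61 with TiO2-NB, a difference of -0.48 (SE 0.08, limma adjusted p = 0.000105). The arrays of the 3 groups did not overlap. Against control the MWCNT value was not called (-0.20, SE 0.08, limma adjusted p = 0.0946). A pair of DNAJB6 probe sets shared with TMEM135 did not show the rise with TiO2-NB. They differed from control by -0.02 and -0.08 with TiO2-NB and by -0.19 each with MWCNT, and between materials by -0.17 and -0.11, none called.

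BAG3 was at 9.43, 9.52 and 9.50 with MWCNT and at 9.77, 9.92 and 9.91 with TiO2-NB (-0.38, SE 0.09, limma adjusted p = 0.00453). BAG1, which couples HSP70 to the proteasome, was at 10.07, 10.12 and 10.13 with MWCNT and at 9.87, 9.85 and 9.76 with TiO2-NB (0.28, SE 0.06, limma adjusted p = 0.000704). Neither gene's groups overlapped. DNAJB6, BAG1 and BAG3 kept their calls in all 15 alternatives.

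HSPD1 was at 12.61, 12.63 and 12.61 with MWCNT and at 12.38, 12.41 and 12.34 with TiO2-NB (0.24, SE 0.09, limma adjusted p = 0.0423). CCT3 was at 11.86, 11.89 and 11.92 with MWCNT and at 11.74, 11.65 and 11.65 with TiO2-NB (0.21, SE 0.07, limma adjusted p = 0.0416). HSPA13 was at 9.05, 9.11 and 8.97 with MWCNT and at 8.83, 8.54 and 8.84 with TiO2-NB (0.31, SE 0.11, limma adjusted p = 0.0482). The arrays were apart for all 3, but the calls were fragile. CCT3 and HSPA13 missed the threshold without any MWCNT array or without TiO2-NB replicate 2 or 3, and HSPD1 without any of the 6. The count of 6 fell to 3 without MWCNT replicate 1 or 2 or TiO2-NB replicate 2 or 3, and with cyclic loess scaling or without the filter on low values.

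HSPA6 differed by -0.44 between materials (SE 0.17, limma adjusted p = 0.0563), so its called rise with TiO2-NB alone was not shown to differ from the MWCNT value in this fit. Same-numbered replicates of these groups varied together. In the paired fit, with the replicate number as a block, 8 of 31 members were called, below the 34.3% of all genes in that fit. HSPA6 (-0.44, SE 0.07, limma adjusted p = 0.00981), HSPE1 (0.28, SE 0.06, 0.0195) and HSPA1L (-0.26, SE 0.07, 0.033) passed and HSPA13 did not (adjusted p = 0.0535). Over all their alternatives the adjusted p ran from 0.00981 to 0.224 for HSPA6, 0.0195 to 0.201 for HSPE1, 0.033 to 0.167 for HSPA1L and 0.0341 to 0.24 for HSPA13. Of the TRiC subunits CCT2, CCT4 and CCT5 differed by 0.13, 0.13 and 0.01, not called.

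**Figure D3:**
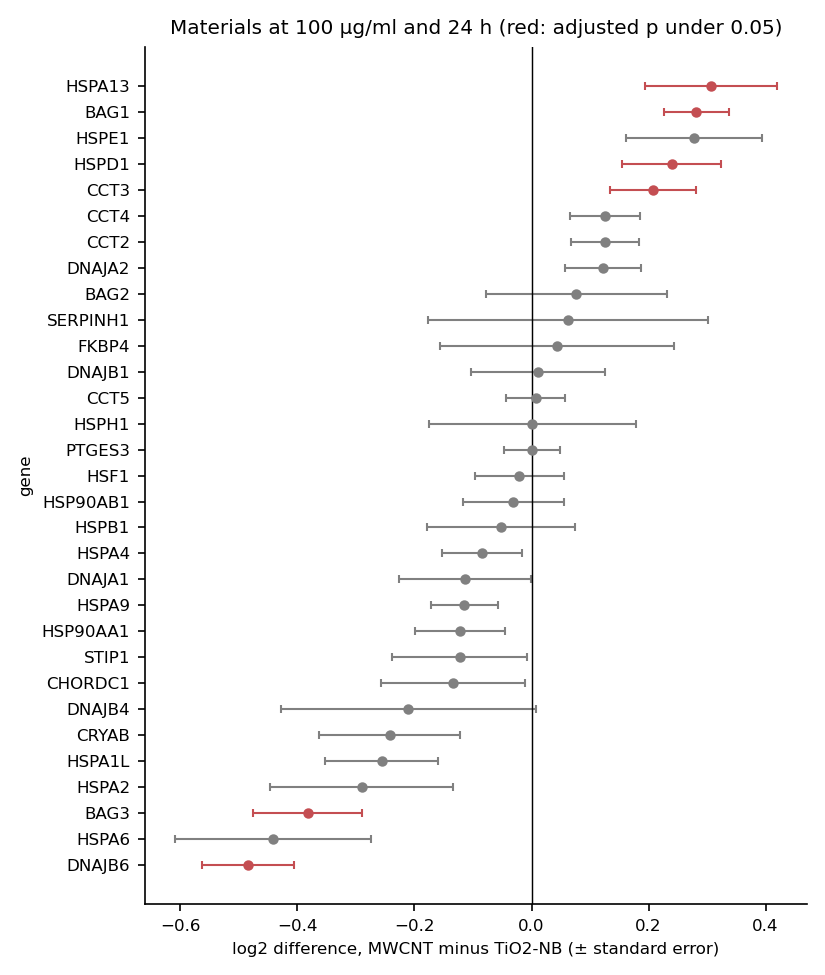
Log2 difference of each measured member between MWCNT and TiO2-NB at 100 µg/ml and 24 h, as MWCNT minus TiO2-NB, with bars for the SE; red marks an adjusted p under 0.05. HSPA13, BAG1, HSPD1 and CCT3 lie to the MWCNT side, at 0.21 to 0.31, and BAG3 and DNAJB6 to the TiO2-NB side, at -0.38 and -0.48.

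Comparing 100 with 10 µg/ml of the same material at 24 h, 2 members rose for MWCNT against 4.67% of all genes called: CCT2 (0.21, SE 0.06, limma adjusted p = 0.038) and CCT5 (0.22, SE 0.05, limma adjusted p = 0.0124). CCT2 was at 11.90, 11.95 and 11.94 at the lower dose and CCT5 at 11.50, 11.52 and 11.54, in each case below every array of the higher dose. CCT2 lost its call without any 1 of the 6 arrays and CCT5 without replicate 1 of the lower or 2 of the higher dose, so the count was 0 or 1 with an array left out. For TiO2-NB 4 rose and 1 fell against 13.5% of all genes called. HSPA6 rose by 0.63 (SE 0.17, limma adjusted p = 0.0123), CCT5 by 0.23 (SE 0.05, 0.00257), HSPA4 by 0.23 (SE 0.07, 0.0292) and HSPA9 by 0.21 (SE 0.06, 0.0122), while HSPA13 fell by 0.53 (SE 0.11, 0.00233). The HSPA4 probe sets disagreed in direction here too. CCT5 and HSPA13 kept their calls without any 1 array, HSPA6 lost its call without replicate 1 of either dose and HSPA9 without replicate 1 of the higher or 2 of the lower, and HSPA4 kept its call in 1 of 6 such fits. The TiO2-NB count of 5 was 2 without replicate 1 of the higher dose and 3 without replicate 2 of the lower.

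Whether the response to 100 µg/ml (exposed minus control) differed between 24 h and 1 h was tested in the same fit. For MWCNT 2 members had a higher response at 24 h, CCT5 and HSPA9, against 3.71% of all genes called. For TiO2-NB it was higher in 5 (HSPA6, CRYAB, HSPA1L, HSPA9 and CCT5) and lower in HSPA13, against 16.3% of all genes called. CRYAB lay above the array's 25th percentile on only 3 of 30 arrays, so its call rests on signal near the bottom of the scale. Both counts, 2 and 6 of 31, lay near the shares of all genes. With 1 array left out the MWCNT count was 1 to 3 and the TiO2-NB count 3 to 6.

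Control cultures also differed with time, without particles. Between the 24 h and the 1 h controls 7 members rose and 5 fell, 12 of 31 (38.7%), near the 36.9% of all genes called (20.8% higher, 16.1% lower). Arrays were apart in 9 members upwards and 6 downwards, against 45% of all genes. The summed macrophage and monocyte markers moved too, lying at 14.58 to 14.64 on the 1 h arrays and at 15.02 to 15.06 on the 24 h arrays. The fibroblast markers lay at 8.82 to 8.89 and then at 9.03 to 9.08. Their part in the members' change was not tested.

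SERPINH1, the collagen chaperone of the endoplasmic reticulum, was at 8.22, 8.85 and 8.07 at 1 h and at 9.31, 9.22 and 9.48 at 24 h (0.96, SE 0.24, a fold of 1.94, limma adjusted p = 0.00252). All 24 h arrays were above the 1 h arrays. DNAJB1 was at 8.30, 8.06 and 8.17 at 1 h and at 8.75, 8.77 and 8.47 at 24 h (0.49, SE 0.12, limma adjusted p = 0.00146), again without overlap. STIP1, which joins HSP70 to HSP90, was at 10.40, 10.32 and 10.22 and then at 10.75, 10.71 and 10.52 (0.35, SE 0.12, limma adjusted p = 0.0187).

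CCT3 was at 11.25, 11.40 and 11.18 at 1 h (a rise of 0.30 by 24 h, SE 0.07, limma adjusted p = 0.00198). CCT2 was at 11.76, 11.66 and 11.60 at 1 h (0.23, SE 0.06, limma adjusted p = 0.0031). DNAJA2, a housekeeping J-domain protein, was at 9.86, 9.89 and 9.91 at 1 h and at 10.07, 10.16 and 10.03 at 24 h (0.20, SE 0.06, limma adjusted p = 0.017). For all 3 the 24 h arrays were above the 1 h arrays. HSPA9 rose by 0.16 (SE 0.06, limma adjusted p = 0.0265).

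HSPB1 had the largest called fall, from 11.29, 11.61 and 11.25 to 10.75, 10.59 and 10.97 (-0.61, SE 0.13, a fold of 0.656, limma adjusted p = 0.000449). DNAJB4, a stress-inducible J-domain protein, was at 6.43, 6.19 and 6.28 and then at 5.77, 6.18 and 5.26 (-0.56, SE 0.22, limma adjusted p = 0.0452). HSPA2, a HSP70 best known from germ cells, was at 5.03, 5.55 and 5.34 and then at 4.56, 4.85 and 4.97 (-0.51, SE 0.16, limma adjusted p = 0.0117). No 24 h array reached a 1 h array for any of the 3, and the 24 h arrays of DNAJB4 were widely spread. BAG3 was at 9.66, 9.79 and 9.98 at 1 h (-0.26 by 24 h, SE 0.09, limma adjusted p = 0.0341) and PTGES3 at 12.14, 12.16 and 12.09 (-0.23, SE 0.05, limma adjusted p = 0.000378).

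HSPH1 was at 10.57, 10.79 and 10.40 at 1 h and at 11.13, 11.21 and 10.71 at 24 h (0.43, SE 0.18, limma adjusted p = 0.0602). HSP90AA1 was at 12.90, 13.11 and 12.92 at 1 h, overlapping its 24 h arrays. Of the shared HSPA8 sets, 2 rose between the controls, by 0.39 (SE 0.09, limma adjusted p = 0.00131) and 0.42 (SE 0.10, limma adjusted p = 0.00126), and the third lay at 0.16 (limma adjusted p = 0.145). SERPINH1, DNAJB1 and HSPB1 kept their calls in all 15 alternatives, and CCT2, CCT3 and PTGES3 without any 1 array. The count of 12 was 7 without replicate 1 of the 24 h control. STIP1 was lost without replicate 3 of the 1 h or 1 or 2 of the 24 h control, HSPA2 without replicate 2 of the 1 h or 1 of the 24 h control, DNAJA2 without replicate 1 of the 1 h or 2 of the 24 h control, BAG3 without replicate 2 or 3 of the 1 h or 1 or 3 of the 24 h control, HSPA9 without replicate 1 or 2 of either, and DNAJB4 without any 1 array other than replicate 2 of the 24 h control.

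**Figure D4:**
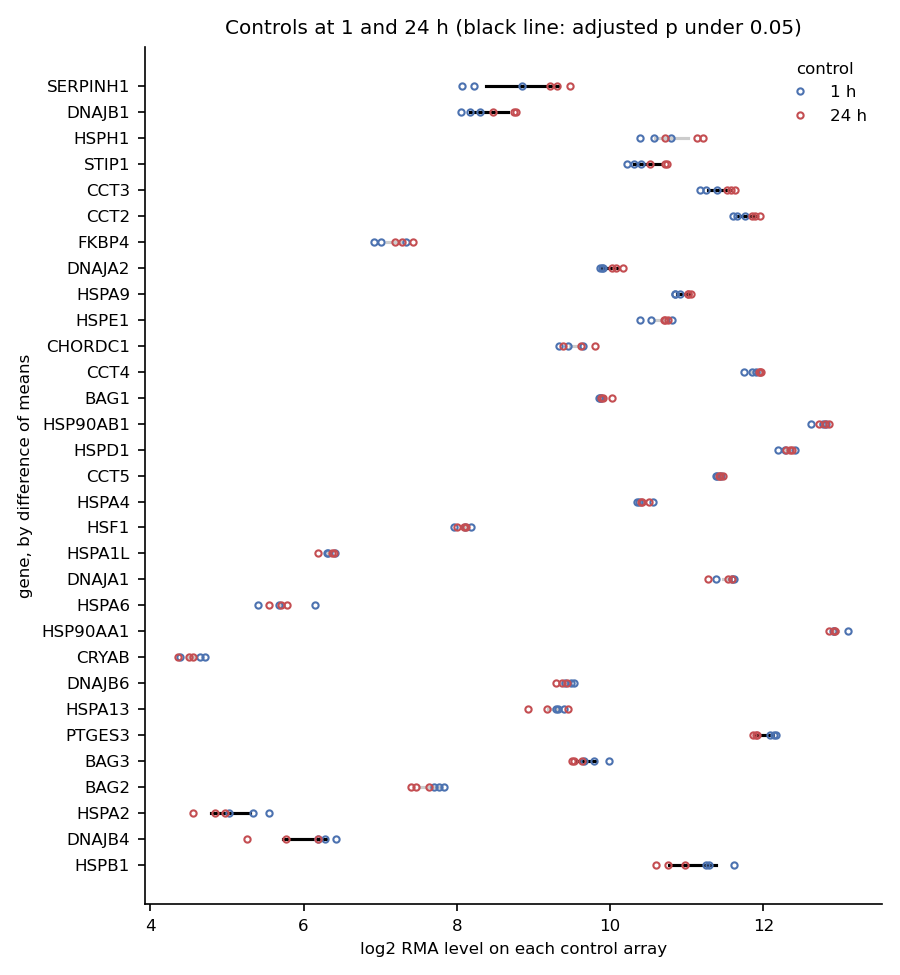
Log2 level of each measured member in control cultures at 1 h and 24 h; points are arrays, and a black line joins the group means of members called between the times. SERPINH1, DNAJB1 and STIP1 climb and HSPB1, DNAJB4 and HSPA2 descend, among 7 called rises and 5 called falls. These calls, 12 of 31 members, lay near the 36.9% of all genes. The DNAJB4 call was lost without most single arrays. Over all groups HSPA2 lay above the array's 25th percentile on 6 of 15 arrays at 24 h.

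Gene lists around the set were read in the same fit. They were chosen with earlier results of these data known, so the shares of a list called are not independent of these data. Beside the lists stand the shares of all genes called, 13% with MWCNT and 22.1% with TiO2-NB at 100 µg/ml and 24 h, 24.9% between these materials and 36.9% between the controls. Of 58 other cytosolic and mitochondrial chaperones and co-chaperones, 49 were measured. With 100 µg/ml MWCNT at 24 h, 13 of them rose and 1 fell (28.6% called, median 0.11), with DNAJC9, a histone-binding J-domain protein, at 0.60 (SE 0.15), DNAJC6, the auxilin that uncoats clathrin vesicles, at 0.48 (SE 0.13), TRAP1, the mitochondrial HSP90, at 0.35 (SE 0.09) and TOMM34, which guides precursors to mitochondria, at 0.34 (SE 0.11). CCT6A and CCT7, given above, are among the 13. Without replicate 1 of the 24 h control 4 of the list rose, and without replicate 1 or 3 of the MWCNT group 8. With TiO2-NB 12 rose and 4 fell (32.7% called, median 0.08). The largest were PPID, the HSP90-bound cyclophilin, at 0.63 (SE 0.09), DNAJC16 at -0.54 (SE 0.11), TOMM34 at 0.38 (SE 0.11) and CDC37, the kinase adaptor of HSP90, at -0.37 (SE 0.08). Between the controls 12 rose and 5 fell (34.7% called, near all genes), with 7 rising without replicate 3 of the 1 h control.

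Of 18 chaperones of the endoplasmic reticulum, 17 were measured. With TiO2-NB 0 rose and 12 fell (70.6% called), with a median of -0.43. HSP90B1, the HSP90 of that compartment, was at -1.06 (SE 0.16, limma adjusted p = 1.88e-05), PDIA4, a disulphide isomerase, at -0.71 (SE 0.13), SDF2L1, a partner of the compartment's HSP70, at -0.70 (SE 0.16) and CRELD2 at -0.66 (SE 0.07). With MWCNT 0 rose and 3 fell (17.6% called, median -0.19): CRELD2 at -0.36, P4HB at -0.28 and CALR, a lectin chaperone, at -0.21. Between the materials 9 were higher with MWCNT (52.9% called) and 0 with TiO2-NB. The number that fell with TiO2-NB was 9 to 13 with any 1 array left out, and with MWCNT it was 1 without replicate 1 of the control or of the MWCNT group. Between the controls 2 rose and 2 fell (23.5% called).

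A list of 22 other genes known to be induced by heat or misfolded protein had 18 measured. With TiO2-NB 10 rose and 0 fell (55.6% called), with a median of 0.31. GADD45B, a stress-induced growth regulator, was at 1.5 (SE 0.32), ATF3, a stress-induced repressor, at 1.35 (SE 0.15), CKS2, a kinase subunit of the cell cycle, at 1.24 (SE 0.09, limma adjusted p = 4.14e-10) and IER5, which promotes HSF1 activity, at 0.98 (SE 0.07, limma adjusted p = 8.05e-10). With MWCNT 2 rose, IER5 at 0.51 (SE 0.07) and CKS2 at 0.48 (SE 0.09), and 0 fell (11.1% called, near all genes). Between the materials 11 were higher with TiO2-NB (6 without MWCNT replicate 3 and 7 without TiO2-NB replicate 2) and 3 with MWCNT (0 without MWCNT replicate 1 or TiO2-NB replicate 2 or 3, and 1 without MWCNT replicate 3). Between the controls 0 rose and 11 fell (61.1% called). The TiO2-NB count was 8 to 10 with any 1 array left out. Several genes of this list, such as ATF3 and GADD45B, respond to many stresses, so the list is not particular to HSF1. Of 34 proteasome subunits 30 were measured. With MWCNT 1 rose (PSMD1, 0.21), with TiO2-NB 1 rose (PSMD12, 0.41) and 1 fell (PSMD11, -0.31), and between the controls 10 rose and 1 fell. These are 3.33%, 6.67% and 36.7% of the subunits, below all genes with both exposures and near them between the controls.

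**Figure D5:**
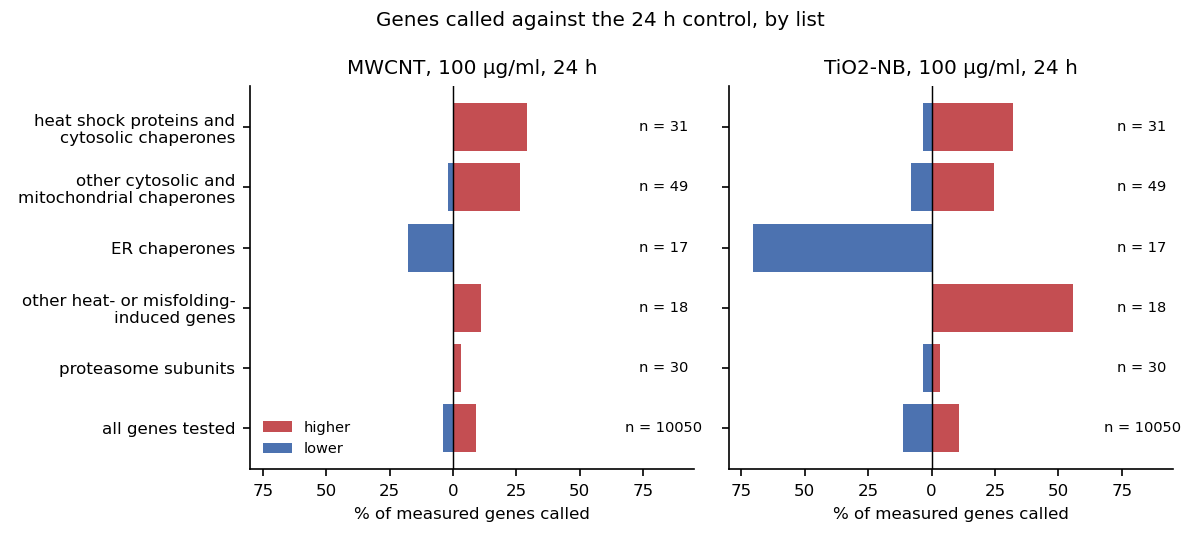
Share of each gene list's measured genes called higher (to the right) or lower (to the left) against the 24 h control, for 100 µg/ml MWCNT and 100 µg/ml TiO2-NB. With MWCNT and TiO2-NB in that order, 9 and 10 of 31 members were called higher, against 8.99% and 10.9% of all genes. With TiO2-NB 1 member was called lower. Of 17 endoplasmic reticulum chaperones 3 and 12 were called lower, against 4.04% and 11.1% of all genes.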

How the data were processed

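RNA of 30 THP-1 cultures (10 groups of 3) was hybridised to Affymetrix arrays, and no file of scanner intensities was used here. The authors deposited log2 values from RMA, which corrects background, quantile-normalises and summarises probes per probe set, per the submitters' processing notes; its version is not given in the sources used here. The number of arrays limits the precision. Control probe sets (62 of 22277) were left out, as were 2108 probe sets without and 1043 with several annotated genes, apart from the shared sets named for HSPA1A, HSPA8, TCP1 and DNAJB6. Gene names came from the platform annotation, and promoter sequences from RefSeq (GRCh38.p14). Probe sets above their array's 25th percentile on at least 3 arrays were kept, with 1 per gene by highest mean. All measured members passed.

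One limma fit (3.58.1, R 4.3.3; lmFit and eBayes, 2-sided) held 10 group means with 20 residual degrees of freedom, and p-values were adjusted over 10050 genes within each comparison. Further and shared probe sets were read in another limma fit over 16167 probe sets, added after values were seen. Errors of differences are standard errors of the fit; each group has n = 3 arrays. Differences are on the log2 scale of RMA, which compresses low signals.

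Members and lists were chosen with earlier results of these data known. Planned for naming by array were the stress-inducible core (HSPA1A, HSPA6, HSPH1, HSP90AA1, HSPB1, DNAJB1, BAG3) and the constitutive HSPA8. HSPA8 is given by differences only, as are HSPH1, HSP90AA1, HSPB1, DNAJB1 and BAG3 for MWCNT against control. Up to 6 called members per direction and comparison with the largest change are named, and others by range or family. Up to 4 called genes are named per further list and exposure. The TRiC subunits outside the members (CCT6A, CCT6B, CCT7, CCT8) were added after values were seen. A rule naming the 5 genes most like HSPA1A could not be applied, since HSPA1A has no probe set of its own. Same-numbered replicates were checked for pairing. Deviations from group means correlated above 0.1 in every pair in 8 of 15 comparisons, and a fit with replicate as a block is given where it changed a call there. Alternatives were median centring, cyclic loess, no filter, a filter at the 50th percentile, the median over probe sets, an intensity trend, only the groups compared, the replicate block and each replicate left out. The filter at the 50th percentile kept 28 members. On simulated data for 100 µg/ml TiO2-NB at 24 h (10050 genes), 28% of genes changed by log2 0.3 were called, 76% at 0.6 and 98% at 1. Far fewer genes were changed there than were called in the real comparison. With Benjamini-Hochberg adjustment, these shares may therefore be too low for the real data.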

Additional observations from a re-analysis of the deposited data

Results flagged for a closer look

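The response to 100 µg/ml (exposed minus control) differed between 24 h and 1 h for several members, by limma's test of that difference itself. The counts, 2 of 31 for MWCNT and 6 of 31 for TiO2-NB, lay near the shares of all genes called. The values below are the 24 h response minus the 1 h response on the log2 scale.

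For MWCNT, CCT5 gave 0.34 (SE 0.07, limma adjusted p = 0.0077) and HSPA9 0.28 (SE 0.08, limma adjusted p = 0.0489), against 3.71% of all genes called. CCT5 kept its call without any 1 of the 12 arrays, and HSPA9 lost it without any 1 of 11 of them.

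For TiO2-NB, 5 members had a higher response at 24 h and 1 a lower one, against 16.3% of all genes called. HSPA6, the inducible HSP70, gave 0.73 (SE 0.24, limma adjusted p = 0.0365). It lost its call without replicate 2 of either control, replicate 1 or 3 of the 1 h exposed group or replicate 1 of the 24 h exposed group. CRYAB gave 0.57 (SE 0.17, limma adjusted p = 0.025) and lost its call without any 1 of 6 arrays; it lay above the array's 25th percentile on 3 of 30 arrays. HSPA1L gave 0.44 (SE 0.14, limma adjusted p = 0.0282) and lost its call without replicate 3 of either control, replicate 1 of the 1 h or replicate 2 of the 24 h exposed group. HSPA9 gave 0.34 (SE 0.08, limma adjusted p = 0.00601) and kept its call without any 1 array. CCT5 gave 0.25 (SE 0.07, limma adjusted p = 0.0189) and lost its call without replicate 1 of the 1 h control or 3 of the 1 h exposed group. HSPA13 gave -0.56 (SE 0.16, limma adjusted p = 0.0194) and lost its call without replicate 2 of the 24 h control or of the 24 h exposed group.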

How the results depend on the processing

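Of 53 called member results, 19 kept their call with any 1 array left out and 7 in every alternative; none of the 838 alternative values of called members changed sign. With an array left out, the count of called members ranged from 3 to 8 for MWCNT and 7 to 10 for TiO2-NB against control (100 µg/ml, 24 h), 3 to 5 between these materials, 7 to 11 between the controls, 0 to 1 and 2 to 6 for the MWCNT and TiO2-NB dose comparisons, and 1 to 3 and 3 to 6 for their responses at 24 h minus 1 h. With only the arrays of the groups compared, the counts were 4, 5, 7, 0, 2, 0 and 2 for MWCNT, TiO2-NB, the controls, both doses and both responses. With a replicate block in those groups they were 0, 1, 6, 0, 0, 0 and 1, and 1 for 100 µg/ml TiO2-NB at 1 h. These fits have fewer arrays to estimate the spread. Cyclic loess and no filter each gave 3 between the materials and 1 for the MWCNT response. Median centring, the stricter filter and the intensity trend each gave 4 for the MWCNT response. No filter and the median over probe sets each gave 1 for the MWCNT dose. The cause of the shifts between scalings was not tested. The numbers did not pair the samples in the comparisons of 100 µg/ml at 24 h with control, of doses and of controls; where they did, the block changed no call other than those given above. With cyclic loess, DNAJB6 was called lower with MWCNT against control. No scaling moved the median of all genes by more than 0.0412. Between the materials MWCNT gave the higher level in 4 called members and TiO2-NB in 2; this became 1 and 4 with median centring, and 1 and 2 with cyclic loess.

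With 3 arrays a group, differences near log2 0.3 were often missed on simulated data with few changed genes. A member without a call is not shown to be unchanged.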
